A study of Mus musculus with 18 samples.

Results

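The 10 genes described here, S100a8, S100a9, Cd14, Msr1, Lyz2, Mrc1, Cd163, Pf4, Ms4a7 and F13a1, mark myeloid cells that enter injured brain from blood and macrophages that reside at its borders. They were chosen by symbol from 37319 entries of a gene table, and all 10 were found with 1 entry each. RNA-seq was done on ipsilateral cortex of adult male C57BL/6J mice of 8 to 10 weeks and 24 to 26 g, in 18 libraries that form 6 groups of 3. All mice, controls included, received an adeno-associated virus (AAV) in the left lateral ventricle 4 weeks before surgery. The virus carried a short hairpin RNA behind the promoter of the neuronal synapsin gene. Sham_C, R24h_C and R28d_C received the scramble hairpin (AAV-SYN-shRNA-Con, the control arm). Sham_T, R24h_T and R28d_T received the hairpin against Tiparp (AAV-SYN-shRNA-TIPARP, the Tiparp arm). Sham groups had sham surgery. R24h and R28d groups had a stroke model, tMCAO, a transient block of the middle cerebral artery, and cortex was taken 24 h or 28 d later. The labels do not say that the 3 libraries of a group come from separate mice, and p-values rest on the spread of the libraries, which may be technical.

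Neutrophils and monocytes are blood leukocytes that enter the brain after a stroke through damaged or activated vessels. Macrophages of the meninges, of the perivascular spaces and of the choroid plexus are a resident population separate from microglia, the macrophages of the brain tissue itself. S100a8 and S100a9 encode the subunits of calprotectin, an abundant cytosolic protein of neutrophils and monocytes. Cd14 is the endotoxin co-receptor, Msr1 a scavenger receptor for modified lipoproteins, and Lyz2 a lysozyme of macrophages, monocytes and neutrophils. Mrc1 (the mannose receptor CD206), Cd163 (the haptoglobin-hemoglobin receptor), Pf4 (a chemokine also stored in platelets), Ms4a7 (a membrane protein) and F13a1 (the A chain of coagulation factor XIII, also found in platelets) are used as markers of border macrophages. Several of these genes are also made by activated microglia, so none assigns RNA to a single cell type. In whole cortex, a change in the number of cells of a type and a change in RNA per cell cannot be told apart.

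The promoter sequences of the calprotectin pair, neighbours that moved together, and of Lyz2, which took another course, are shown as a frame for the values. Ms4a7 shared the order of group means of Lyz2. They are the 250 bases before the RefSeq start of each gene on its own strand, in build GRCm38.p6, whereas the expression table was made with mm9. S100a8 lies at chr3:90668821-90669070 on the plus strand, S100a9 at chr3:90695722-90695971 on the minus strand, and Lyz2 at chr10:117282273-117282522 on the minus strand. Capitals mark matches on either strand to AGGAAG and to TATAAA, the TATA box. AGGAAG is 1 form of the site bound by Ets factors such as PU.1 of myeloid cells, and other forms were not searched.
S100a8: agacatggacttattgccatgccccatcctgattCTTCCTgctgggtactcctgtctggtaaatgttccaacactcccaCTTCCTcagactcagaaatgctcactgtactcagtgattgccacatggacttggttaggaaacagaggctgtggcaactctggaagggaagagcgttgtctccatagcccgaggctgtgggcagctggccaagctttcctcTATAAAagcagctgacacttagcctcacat
S100a9: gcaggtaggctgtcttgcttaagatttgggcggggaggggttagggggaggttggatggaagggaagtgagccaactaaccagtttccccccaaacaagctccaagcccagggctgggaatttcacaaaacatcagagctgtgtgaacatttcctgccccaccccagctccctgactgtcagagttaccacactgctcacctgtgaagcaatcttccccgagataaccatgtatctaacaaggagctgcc
Lyz2: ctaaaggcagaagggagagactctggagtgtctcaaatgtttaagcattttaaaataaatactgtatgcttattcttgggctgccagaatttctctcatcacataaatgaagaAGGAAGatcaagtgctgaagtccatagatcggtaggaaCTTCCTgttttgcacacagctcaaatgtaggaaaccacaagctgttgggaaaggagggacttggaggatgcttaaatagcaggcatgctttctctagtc
RefSeq promoters were found for 8 of the 10 genes. AGGAAG occurred in 5 of these 8, S100a8, Lyz2, Mrc1, Pf4 and F13a1, against 29.5% of 32851 promoters of the same length. TATAAA occurred in 1 of 8, S100a8, where it starts at position -30 from the start site, against 12.4% of promoters. TGACTCA, the AP-1 site, was in 0 of 8, against 4.46%. These are counts of letters and not measurements of binding. Ms4a7 and F13a1 had more than 1 promoter. A gene was counted if any of its promoters matched, whereas the shares are per promoter.

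Values are FPKM, fragments scaled to transcript length and to the total mapped, so levels of different genes can be compared. The table gives no read totals, and the depth of each library is unknown beyond a rough relative value of 0.940 to 1.08 times that of Sham_C1. Tiparp itself was 4.17 to 4.95 FPKM in Sham_T and 3.77 to 4.76 in Sham_C, 3.00 to 5.00 in R24h_T and 4.60 to 8.65 in R24h_C, and 3.72 to 4.06 in R28d_T and 3.59 to 4.46 in R28d_C. Its difference between arms did not pass an exact two-sided permutation test in sham (log2 difference 0.06, p = 0.6), at 24 h (-0.60, p = 0.2) or at 28 d (0.00, p = 1), and 3 against 3 libraries cannot go below p = 0.1. Whole cortex includes cells in which the synapsin promoter is silent, and what is called an arm below is the labelled hairpin. The summed level of 8 cortical excitatory neuron markers was 208 to 706 FPKM over the 18 libraries. In 4 libraries, Sham_T1, Sham_T2, R24h_C3 and R28d_T2, the choroid plexus gene Ttr was above 100 FPKM, and leading counts are also given without them.

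In ischemic cortex at 24 h, the markers were higher than in sham in 9 of the 9 that could be tested, from 0.62 for Cd163 to 3.64 for S100a9 on the log2(FPKM + 1) scale. This scale understates the change of genes near 0. Of all 14578 genes tested, 24.7% passed, 19.3% as higher and 5.38% as lower. The median difference of the 9 was 2.50, against 0.10 over all genes. A gene at or near 0 in sham could enter the test (at least 1 FPKM in at least 3 libraries) only through its 24 h level, so the share of 9 in 9 is partly set by that filter. Ms4a7 did not reach it. In 8 of the 10 genes all 6 libraries at 24 h lay above all 6 sham libraries, and Cd163 and Ms4a7 overlapped. Of the tested genes this held for 8 of 9, against 8.19% of all genes tested. Without the 4 libraries rich in Ttr, 8 passed and Cd163 did not (adjusted p = 0.10). In the control arm alone 9 passed, where 3333 of 13873 genes tested did. In the Tiparp arm alone 0 of the 4 that reached the filter passed (adjusted p from 0.053 for Pf4 to 0.25 for Cd14). There 27 of 13501 genes tested passed.

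**Figure D1:**
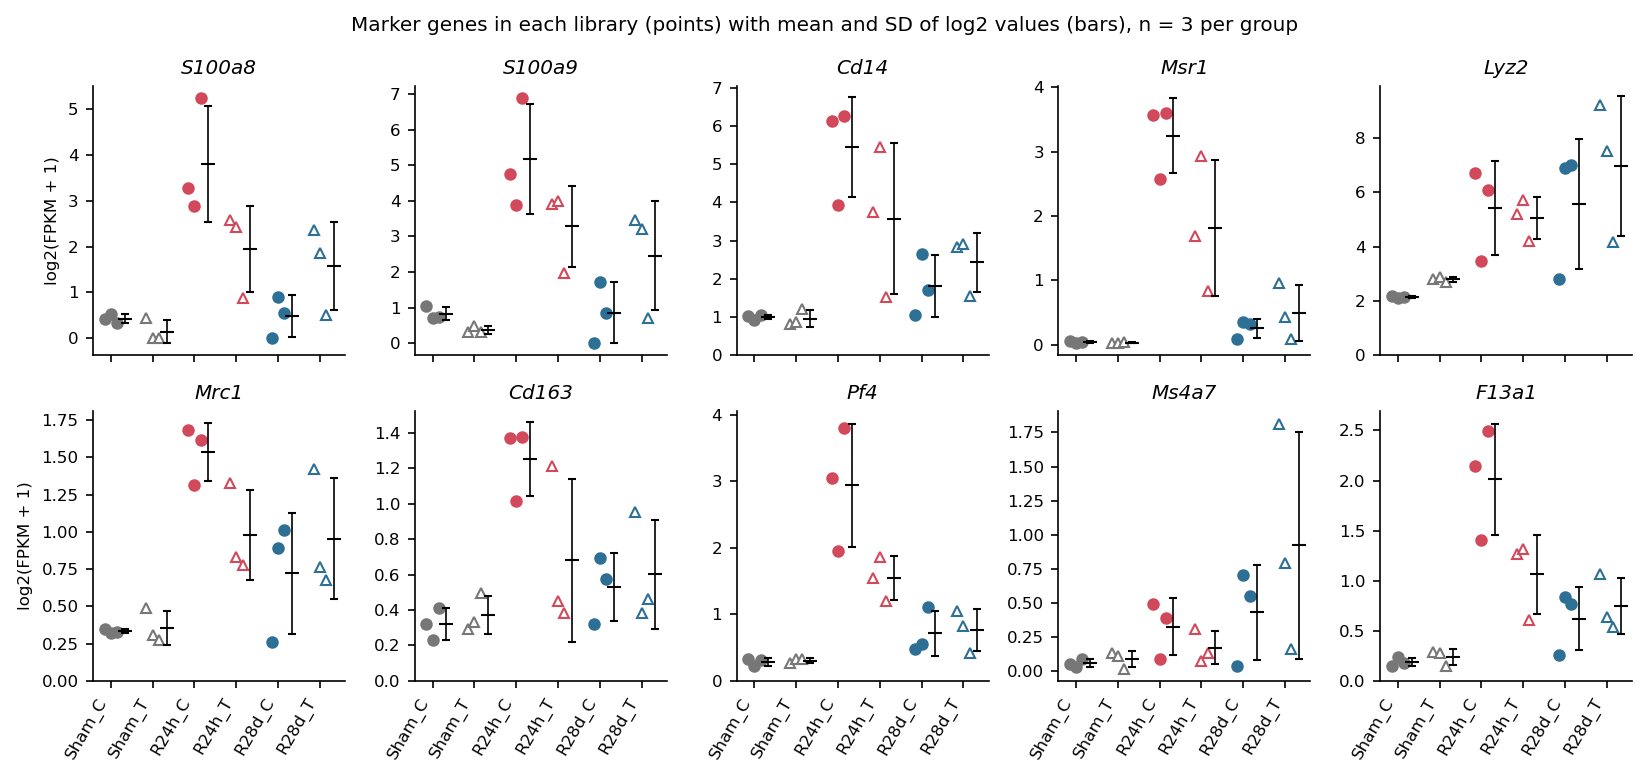
Each panel plots 1 gene as log2(FPKM + 1) in the 18 libraries (points, circles for the control arm and triangles for the Tiparp arm), with the mean and SD of each group of 3 as bars. The scales differ between panels. For 8 genes R24h_C has the highest group mean, and for Lyz2 and Ms4a7 it is R28d_T.

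S100a8 was at 0.338, 0.436 and 0.251 FPKM in Sham_C1 to Sham_C3. It was 0.355 FPKM in Sham_T1 and was listed at 0 in Sham_T2 and Sham_T3. Levels at 24 h were 8.74, 6.38 and 36.6 FPKM in R24h_C1 to R24h_C3 and 4.93, 4.35 and 0.826 FPKM in R24h_T1 to R24h_T3. R24h_C3 stood far above the rest and R24h_T3 below it, yet even R24h_T3 exceeded every sham library. The rise was 2.59 on the log2 scale (SE 0.44, adjusted p = 0.0025). At 28 d it was listed at 0 in R28d_C1 and was at 0.862 FPKM in R28d_C2 and 0.468 in R28d_C3, close to the sham range. The Tiparp arm held 4.11 FPKM in R28d_T1 and 2.65 in R28d_T2, with 0.421 in R28d_T3.

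S100a9, its partner, had a higher mean than S100a8 in every group. It was at 1.05, 0.637 and 0.665 FPKM in Sham_C1 to Sham_C3 and at 0.236, 0.403 and 0.232 FPKM in Sham_T1 to Sham_T3, ranges that do not overlap. Levels at 24 h were 25.9, 13.9 and 117 FPKM in R24h_C1 to R24h_C3 and 13.9, 15.0 and 2.93 FPKM in R24h_T1 to R24h_T3. The mean over the 6 libraries at 24 h was 58.5 times the sham mean, and the log2 rise of 3.64 (SE 0.50, adjusted p = 0.00092) was the largest of the 10 genes. R24h_C3 carried much of that mean, and without any 1 library the log2 difference stayed between 3.18 and 4.01. At 28 d S100a9 was listed at 0 in R28d_C1, at 2.28 FPKM in R28d_C2 and at 0.811 in R28d_C3, against 10.1, 8.25 and 0.628 FPKM in R28d_T1 to R28d_T3. The same pair of libraries, R28d_T1 and R28d_T2, were thus high for both calprotectin genes.

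Cd14 was at 0.754 to 1.31 FPKM over the 6 sham libraries. It reached 68.6, 14.4 and 75.9 FPKM in R24h_C1 to R24h_C3 and 12.4, 42.9 and 1.88 FPKM in R24h_T1 to R24h_T3. Every library at 24 h was above every sham library, although R24h_T3 only narrowly. The rise was 3.53 (SE 0.61, adjusted p = 0.0029), and the ratio of means was 36.6. At 28 d Cd14 was at 1.06, 5.31 and 2.29 FPKM in R28d_C1 to R28d_C3 and at 6.18, 6.57 and 1.91 FPKM in R28d_T1 to R28d_T3. Of the 6 libraries 5, all but R28d_C1, were above the sham range.

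Msr1 was almost absent from sham cortex, at 0.0187 to 0.0434 FPKM. It was at 10.9, 4.94 and 11.1 FPKM in R24h_C1 to R24h_C3 and at 2.21, 6.66 and 0.786 FPKM in R24h_T1 to R24h_T3. Its rise was 2.50 (SE 0.35, adjusted p = 0.0010), and the ratio of means, 237, was the highest of the 10 genes because its sham level was so low. By 28 d it was at 0.0623, 0.276 and 0.249 FPKM in R28d_C1 to R28d_C3 and at 0.941, 0.349 and 0.0616 FPKM in R28d_T1 to R28d_T3. These low values still lay above all 6 sham libraries.

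Lyz2 followed another course. It was at 3.50, 3.37 and 3.41 FPKM in Sham_C1 to Sham_C3 and at 5.96, 6.46 and 5.58 FPKM in Sham_T1 to Sham_T3. At 24 h it reached 104.7, 10.1 and 67.0 FPKM in R24h_C1 to R24h_C3 and 36.2, 51.6 and 17.4 FPKM in R24h_T1 to R24h_T3. All 6 libraries were above sham, and the rise was 2.76 (SE 0.47, adjusted p = 0.0026). Levels at 28 d were 6.11, 119 and 128 FPKM in R28d_C1 to R28d_C3 and 597, 185 and 17.1 FPKM in R28d_T1 to R28d_T3. The 28 d libraries thus spanned the sham range, in R28d_C1, and the highest level of any of the 10 genes in the series, in R28d_T1. The paralog Lyz1, whose sequence is nearly identical, was between 0 and 2.18 FPKM in all libraries, and reads of the pair could have been split by the counting.

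Mrc1 and Cd163, endocytic receptors typical of border macrophages, had the smallest rises at 24 h of the 9 genes that passed. Mrc1 was at 0.207 to 0.400 FPKM in sham, at 2.21, 1.48 and 2.07 FPKM in R24h_C1 to R24h_C3 and at 1.51, 0.782 and 0.710 FPKM in R24h_T1 to R24h_T3. No sham library reached the lowest library at 24 h, and the rise was 0.91 (SE 0.14, adjusted p = 0.0014). Cd163 was at 0.173 to 0.409 FPKM in sham, at 1.59, 1.02 and 1.59 FPKM in R24h_C1 to R24h_C3 and at 1.32, 0.366 and 0.303 FPKM in R24h_T1 to R24h_T3. R24h_T2 and R24h_T3 lay within the sham range. The difference of 0.62 (SE 0.17, adjusted p = 0.020) passed by little and was lost without Sham_C2 (adjusted p = 0.051) or without R24h_C1 (adjusted p = 0.052). At 28 d Mrc1 was at 0.197 to 1.02 FPKM in R28d_C and 0.601 to 1.67 in R28d_T, and Cd163 at 0.250 to 0.621 and 0.305 to 0.939 FPKM.

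Pf4 and F13a1 had low sham levels and larger rises. Pf4 was at 0.165 to 0.255 FPKM in sham, at 7.32, 2.88 and 12.98 FPKM in R24h_C1 to R24h_C3 and at 1.93, 2.64 and 1.30 FPKM in R24h_T1 to R24h_T3. Its rise was 1.94 (SE 0.31, adjusted p = 0.0020). At 28 d Pf4 was at 0.392, 0.473 and 1.15 FPKM in R28d_C1 to R28d_C3 and at 1.06, 0.770 and 0.341 FPKM in R28d_T1 to R28d_T3. The 3 conditions formed separate ranges for Pf4, with 24 h highest, 28 d next and sham lowest, the only one of the 10 genes to do so. F13a1 was at 0.107 to 0.219 FPKM in sham, at 3.42, 1.64 and 4.62 FPKM in R24h_C1 to R24h_C3 and at 1.40, 1.49 and 0.520 FPKM in R24h_T1 to R24h_T3. It rose by 1.33 (SE 0.22, adjusted p = 0.0026) and was at 0.195 to 1.09 FPKM at 28 d. Both genes are also made by platelets. Of 10 other platelet markers 1 was expressed enough to be tested and did not pass, and their summed level was 3.30 to 4.19 FPKM in sham and 3.46 to 5.51 at 24 h. Single platelet markers under the filter differed in direction. The integrin gene Itga2b was at 0.179 to 0.335 FPKM in sham and at 0.375 to 1.28 at 24 h, without overlap, and the platelet chemokine gene Ppbp at 0 to 0.110 and at 0.106 to 0.884 FPKM. The glycoprotein gene Gp9 was at 0.0695 to 0.278 FPKM in sham and at 0 to 0.193 at 24 h. The part of platelets in the levels of Pf4 and F13a1 was not tested.

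Ms4a7 was the lowest of the 10 genes at 24 h and did not reach the level needed for the test. It was at 0.0136 to 0.0977 FPKM in sham, at 0.408, 0.0646 and 0.312 FPKM in R24h_C1 to R24h_C3 and at 0.237, 0.0547 and 0.0962 FPKM in R24h_T1 to R24h_T3. Of the 6 libraries at 24 h 3 lay above the sham range. Levels at 28 d were 0.0254, 0.628 and 0.467 FPKM in R28d_C1 to R28d_C3 and 2.52, 0.729 and 0.118 FPKM in R28d_T1 to R28d_T3. Of these 6, 5, all but R28d_C1, were above every sham library. Ms4a7 shared with Lyz2 the order of the group means, with R28d_T first and R28d_C second.

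**Figure D2:**
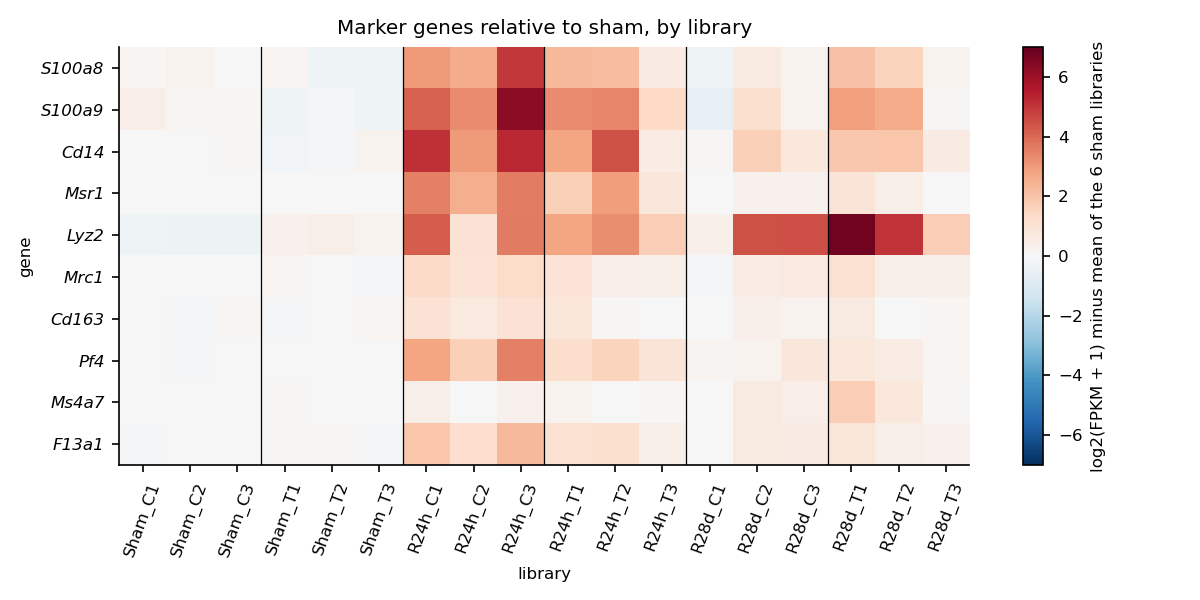
Colour gives log2(FPKM + 1) minus the mean of the 6 sham libraries, for the 10 genes (rows) in the 18 libraries (columns), with lines between groups. The 24 h columns are red in most rows, R24h_T3 is the palest of the R24h_T columns in 9 of 10 rows, and at 28 d the Lyz2 row is the darkest, most of all in R28d_T1.

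The order of the group means was R24h_C then R24h_T for 8 genes, S100a8, S100a9, Cd14, Msr1, Mrc1, Cd163, Pf4 and F13a1, and each of these had R28d_T and then R28d_C next. Most neighbours in these orders did not differ beyond their spread. R24h_C and R24h_T had separate ranges for S100a8 (17.2 ± 16.8 against 3.37 ± 2.22 FPKM, SD, n = 3 each), for Pf4 (7.73 ± 5.06 against 1.96 ± 0.669 FPKM) and for F13a1 (3.23 ± 1.5 against 1.14 ± 0.537 FPKM). R24h_T and R28d_T were apart for Pf4 only. At the low end the R28d_C range was apart from the sham group next in order for Msr1 and Pf4, and Sham_C and Sham_T were apart for S100a9. For Lyz2 the 3 highest groups, R28d_T (266 ± 298 FPKM), R28d_C (84.4 ± 67.9) and R24h_C (60.6 ± 47.6), overlapped, as did R24h_C and R24h_T (35.0 ± 17.1), whereas R24h_T, Sham_T (6.00 ± 0.445) and Sham_C (3.43 ± 0.0687) were apart from one another.

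Libraries of a group differed together across these genes. R24h_C2 was the lowest of its group for 10 of 10 genes and R28d_C1 for 10 of 10, while R24h_T3 was the lowest for 9 and R28d_T3 for 9. R28d_T1 was the highest of its group for 9 of 10 and R24h_C3 for 7 of 10. The summed level of the 9 genes other than Lyz2 was 129, 46.6 and 262 FPKM in R24h_C1 to R24h_C3 and 39.8, 74.3 and 9.35 FPKM in R24h_T1 to R24h_T3, against 2.29 to 3.39 FPKM in sham. At 28 d it was 2.19, 12.1 and 7.66 FPKM in R28d_C1 to R28d_C3 and 28.6, 20.9 and 4.91 FPKM in R28d_T1 to R28d_T3. The sum in R28d_C1 was thus as low as in sham. The cortical neuron sum went the other way in the extreme libraries at 24 h, with 208 FPKM in R24h_C3 and 706 in R24h_T3, against 548 to 661 in sham. R24h_C3 also had the highest sums of the 18 libraries for 8 striatal neuron markers, 199 FPKM, and for 10 choroid plexus markers, 1727 FPKM. In R24h_T3 these sums were 56.3 and 10.9 FPKM. The part of these differences in the marker levels was not tested.

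**Figure D3:**
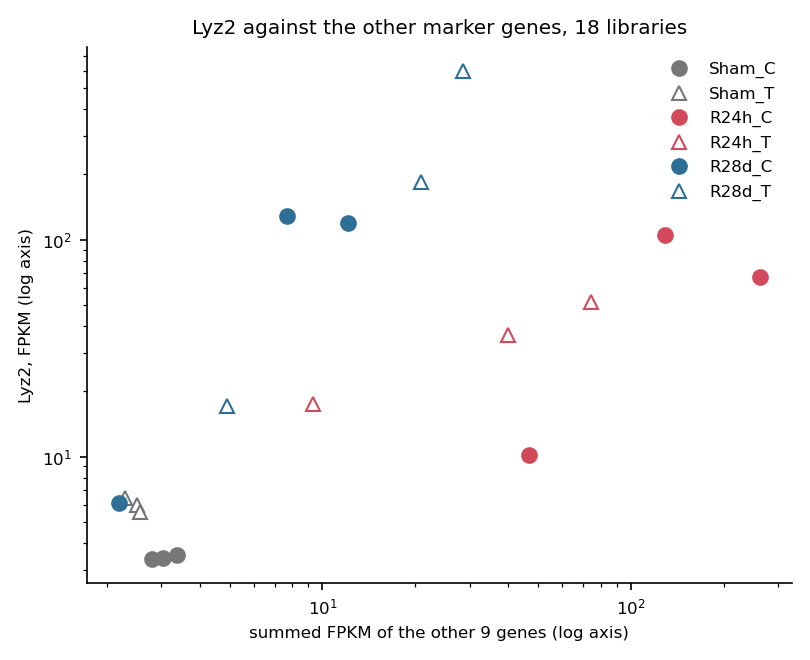
Each point is 1 library, with the summed FPKM of the other 9 genes on the horizontal log axis and Lyz2 FPKM on the vertical log axis. Most libraries of 24 h lie to the right, with sums of 9.35 to 262 FPKM, whereas 4 of the 6 libraries of 28 d hold Lyz2 above 100 FPKM at sums of 7.66 to 28.6 FPKM.

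At 28 d against sham, 0 of the 3 genes that could be tested passed (limma), 2 of them with an unadjusted p under 0.05. Of all 14234 genes tested 0.00703% passed, which is 1 gene. Lyz2 differed by 3.81 (95% interval 1.97 to 5.64, unadjusted p = 0.00074, adjusted p = 0.13), with a mean of 175 FPKM against 4.71 in sham and 5 of 6 libraries above the sham range. The difference of Cd14 was 1.14 (interval 0.50 to 1.78, adjusted p = 0.13) and that of S100a9 1.06 (interval -0.07 to 2.20, adjusted p = 0.32). Lyz2 and Cd14 passed without R28d_C1 (adjusted p = 0.034 and 0.035) and without R28d_T3 (0.020 and 0.026). The other 7 genes were under the filter, and 0 of them passed when it was dropped. Msr1 and Pf4, both under the filter, were the genes, 2 of 10, whose 28 d libraries all lay above sham. Of the 3 tested 0 did, against 1.19% of all genes tested.

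Between 28 d and 24 h, 2 of the 9 tested genes were lower at 28 d, against 1.5% of 14745 genes that were lower and 2.98% that passed either way. Msr1 fell by 2.16 (SE 0.39, adjusted p = 0.026) and Pf4 fell by 1.5 (SE 0.34, adjusted p = 0.041). Pf4 was also the 1 gene of the 9 whose 28 d libraries all lay below those of 24 h, as did 1.23% of all genes tested. Msr1 was at most 0.941 FPKM at 28 d, and Pf4 reached 1 FPKM there in too few libraries for the test. Both entered only through their 24 h levels, so these counts are partly set by the filter. The differences of Cd14 (-2.39, adjusted p = 0.078), S100a9 (-2.57, 0.084), S100a8 (-1.85, 0.099) and F13a1 (-0.85, 0.077) did not pass, nor did those of Mrc1 (-0.42, 0.22) and Cd163 (-0.40, 0.20). For Lyz2 the difference was 1.05 higher at 28 d, with an interval of -1.08 to 3.17 (adjusted p = 0.52). These calls moved with single libraries, as 6 genes passed without R24h_T3 and 0 passed without R28d_C2. Msr1 lost its call without R24h_C1, R24h_T2, R28d_T2, R28d_T3 or any 1 R28d_C library, with adjusted p up to 0.077. Pf4 lost it without any 1 of 9 of the 12 libraries, and kept it without R24h_C3, R24h_T3 or R28d_T1, with adjusted p up to 0.11. In the control arm alone 6 passed as lower, among them S100a9 by -4.32 and Cd14 by -3.63, where 670 of 13988 genes were lower. In the Tiparp arm alone 0 passed, as did 0 of 13817 genes, and the values for S100a9 and Cd14 were -0.83 and -1.14. Without the libraries rich in Ttr 0 passed.

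**Figure D4:**
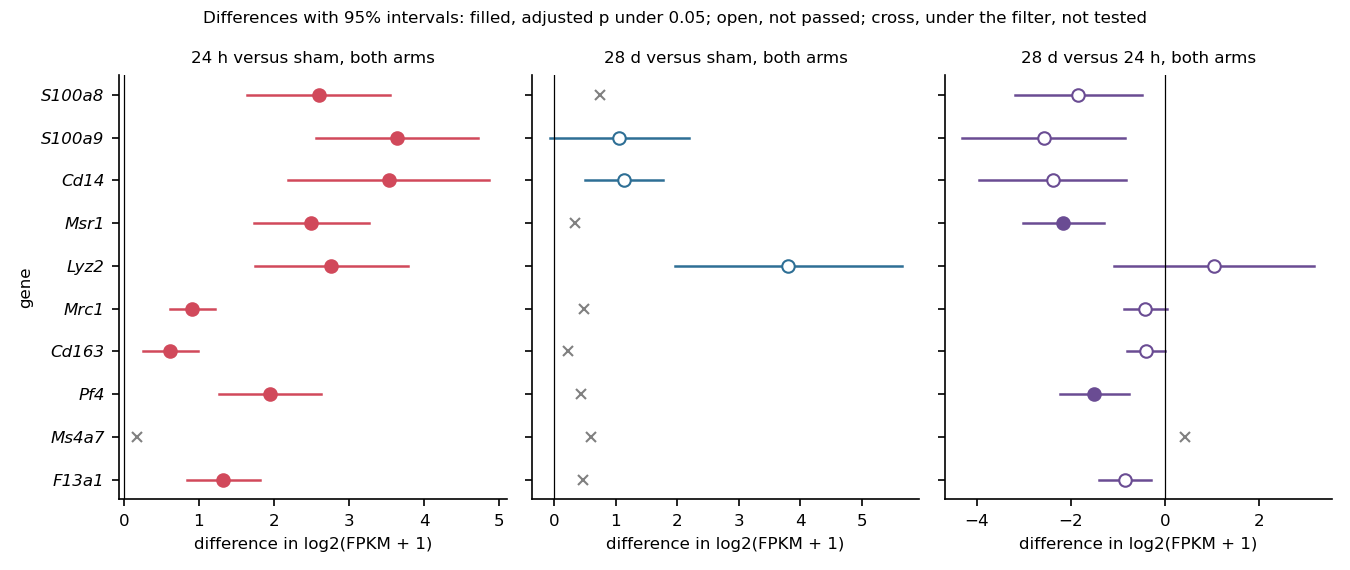
Points are differences in log2(FPKM + 1) with 95% intervals for the 10 genes in 3 comparisons, filled where the adjusted p was under 0.05 and open where it was not, and crosses are genes under the filter. At 24 h 9 points are filled, at 28 d against sham none is, and at 28 d against 24 h those of Msr1 and Pf4 are.

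The arms were compared at each time to see whether the labelled hairpin moved with the markers. In sham, Lyz2 was higher in the Tiparp arm by 0.66 (SE 0.07, adjusted p = 0.021; 6.00 ± 0.445 against 3.43 ± 0.0687 FPKM, SD, n = 3 each) in 3 of 3 libraries. It was 1 of 2 members tested, where 0.21% of 13342 genes passed, 0.0824% as higher and 0.127% as lower, and where 10.6% had all Sham_T libraries above all of Sham_C. The call was lost without Sham_C2 (adjusted p = 0.14), without the libraries rich in Ttr (0.16) and when any other single sham library but Sham_T3 was left out. Of the 3 Sham_T libraries 2 are rich in Ttr. The summed level of 12 homeostatic microglia markers was 101 to 108 FPKM in Sham_T and 93.7 to 96.7 in Sham_C, and the microglial Fc receptor-like gene Fcrls was the 1 of the 12 that passed, higher in Sham_T by 0.82 (adjusted p = 0.019). The part of microglia in the Lyz2 difference was not tested. S100a9 was lower in each of the 3 Sham_T libraries than in all 3 of Sham_C but was under the filter.

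At 24 h all 9 tested genes had lower means in the Tiparp arm, with a median difference of -1.40 against -0.08 over all genes, and 0 of 9 passed (limma), 5 of them with an unadjusted p under 0.05. Over 14010 genes 0% passed. The difference was -1.85 for S100a8 (95% interval -3.42 to -0.28), -1.40 for Pf4 (-2.41 to -0.39) and -0.95 for F13a1 (-1.68 to -0.22), each with adjusted p = 0.67. Their arms did not overlap, 3 of 9 tested, against 8.79% of all genes tested with lower values in all Tiparp-arm libraries. S100a8, Msr1, Mrc1, Cd163 and F13a1 reached the filter only with their R24h_C levels. The counts of 9 and of 3 and the median are therefore partly set by the filter. R24h_C2 was the lowest of its group for 10 of 10 genes and R24h_T3 for 9, so the 9 tested genes are not separate results. S100a9 (-1.89), Cd14 (-1.87), Msr1 (-1.43), Mrc1 (-0.56) and Cd163 (-0.57) overlapped between arms. Lyz2 differed by -0.39, with an interval of -2.26 to 1.49, and turned to 0.26 without R24h_C1 and to 0.04 without R24h_T3. The difference between the arms in the 24 h response was tested directly. It had a median of -1.41 over the 9 genes, against -0.09 over all genes. The median of the 9 is partly set by the filter in the same way. Again 0 of 9 passed (limma), 4 with an unadjusted p under 0.05, where 0% of 14578 genes passed. The lowest adjusted p was 0.42, for Pf4 (-1.42, interval -2.50 to -0.33) and F13a1 (-0.998, interval -1.79 to -0.21). Pf4 passed without R24h_C2 (-1.91, adjusted p = 0.046). A call in 1 arm and not in the other is therefore not a shown difference between them. The sham libraries enter both this test and the comparison of 24 h with sham.

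At 28 d the mean was higher in the Tiparp arm for 10 of 10 genes. Over all 13773 genes tested the median log2 difference was 0.02. R28d_C1 was the lowest of its group for 10 of 10 genes and R28d_T1 the highest for 9, so the 10 are not separate results. S100a8 was at 2.39 ± 1.86 FPKM in R28d_T and 0.444 ± 0.432 in R28d_C, S100a9 at 6.32 ± 5.01 and 1.03 ± 1.16, and Lyz2 at 266 ± 298 and 84.4 ± 67.9 FPKM (SD, n = 3 each). The arms overlapped for 10 of 10 genes, and 3.37% of all genes tested lay higher in R28d_T without overlap. None of the 3 tested genes passed (limma, 0 of 3, also 0 with an unadjusted p under 0.05), and 0% of 13773 genes did. The interval was -0.30 to 3.50 for S100a9, -0.59 to 1.85 for Cd14 and -2.39 to 5.18 for Lyz2. The difference between arms in the 28 d response passed in 0 of 3 (limma), where 0.00703% of 14234 genes passed. Of these S100a9 had an unadjusted p under 0.05 (2.07, interval 0.11 to 4.02, limma adjusted p = 0.96).

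Other markers of the same cell types were counted from lists that hold none of the 10 genes. Their counts at 24 h are to be read beside the 19.3% of all tested genes that rose, and, as for the 10 genes, some list members reached the filter only through their 24 h level. At 24 h against sham, 5 of 7 tested neutrophil markers rose, of 16 measured, with a median of 1.19. The C-type lectin receptor Clec4d, listed at 0 in all 6 sham libraries, was at 0.244 to 6.27 FPKM at 24 h (adjusted p = 0.0046). The decoy interleukin receptor Il1r2 rose by 1.19 (adjusted p = 0.0079) and the chemokine receptor Cxcr2 by 0.98 (adjusted p = 0.038). The other 2 tested did not pass. Retnlg, a resistin-like protein, was at 0 to 0.191 FPKM in sham, 0.686 to 36.9 in R24h_C and 0 to 1.06 in R24h_T (adjusted p = 0.087), and the granule protein gene Ngp at 0 to 0.457, 0.283 to 4.42 and 0.194 to 8.61 FPKM (adjusted p = 0.068). Markers under the filter were uneven. The collagenase gene Mmp8 was at 0 to 0.0254 FPKM in sham, 0.476 to 4.17 in R24h_C and 0.0251 to 0.510 in R24h_T. Ly6g was at 0 in all sham libraries and at most 0.390 FPKM at 24 h. Mpo and Elane, transcripts of neutrophil precursors, were at most 0.0777 FPKM and at 0 in all 6 libraries at 24 h. The summed neutrophil list was 2.29 to 3.55 FPKM in sham, 12.7 to 77.2 in R24h_C, 5.83 to 18.7 in R24h_T, 3.10 to 9.57 in R28d_C and 5.34 to 21.9 in R28d_T. Outside 24 h much of this sum was 1 gene, Csf3r. It was at 1.43 to 2.24 FPKM in sham, 2.30 to 6.78 in R28d_C and 3.81 to 14.6 in R28d_T. In R28d_T Ly6g was at 0 and Ngp at 0.375 to 4.88 FPKM.

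Of 16 monocyte markers 7 of 10 tested rose at 24 h, with a median of 1.68. Chil3, a chitinase-like protein, rose by 2.36 (adjusted p = 0.019), the matrix protein Thbs1 by 2.16 (adjusted p = 0.013) and the hyaluronan receptor Cd44 by 2.08 (adjusted p = 0.0026). Fn1, Ly6c1 and Thbs1 are made by vessel cells as well. Ccr2, the chemokine receptor of inflammatory monocytes, was under the filter, at 0.0047 to 0.0382 FPKM in sham, 0.0791 to 0.578 in R24h_C and 0.0201 to 0.477 in R24h_T. Ly6c2, an antigen of the same cells, was at 0.0386 to 0.0911 FPKM in sham and at 0.190 to 1.03 at 24 h, without overlap. Of 16 border macrophage markers 9 of 9 tested rose at 24 h, with a median of 0.76. The endocytic adaptor Dab2 rose by 2.19 (adjusted p = 0.0020), the hyaluronan receptor Lyve1, also of lymphatic vessels, by 1.62 (adjusted p = 0.0088) and the scavenger receptor Stab1 by 1.43 (adjusted p = 0.0021). Lyve1 was at 3.32 to 10.4 FPKM in R24h_C and at 0.270 to 1.11 in R24h_T. Those of this list under the filter were mixed. Siglec1 was at 0.0060 to 0.0604 FPKM in sham and at 0.0638 to 0.916 at 24 h, without overlap. Cd209f was at 0 to 0.145 FPKM in sham, 0.0187 to 0.506 in R24h_C and 0 to 0.0587 in R24h_T. Mgl2 was at 0 to 0.117, 0.0585 to 0.0892 and 0 to 0.118 FPKM. Cd209a, Folr2, Clec10a and Ccl8 also overlapped sham in R24h_C, in R24h_T or in both.

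Markers of other cells moved at the same time. Of 10 meningeal fibroblast markers 8 rose at 24 h, with sums of 9.06 to 17.9 FPKM in sham, 40.0 to 66.5 in R24h_C and 22.6 to 28.7 in R24h_T. Of 12 homeostatic microglia markers 3 rose and 4 fell at 24 h, and at 28 d against 24 h 4 were higher. The microglia sum at 28 d was 106, 196 and 133 FPKM in R28d_C1 to R28d_C3 and 257, 235 and 123 in R28d_T1 to R28d_T3. The libraries with the highest Lyz2, R28d_T1 and R28d_T2, thus also had the highest microglia sums, and R28d_C1, with the lowest Lyz2 at 28 d, had the lowest. The summed astrocyte list was 588, 1099 and 731 FPKM in R28d_C1 to R28d_C3 and 1462, 1115 and 660 in R28d_T1 to R28d_T3. Much of this spread was 1 gene, Gfap, the intermediate filament of reactive astrocytes. It was at 37.8 to 407 FPKM in R28d_C and 96.8 to 886 in R28d_T. Aqp4 varied too, at 19.0 to 40.6 and 21.5 to 82.6 FPKM, whereas Slc1a2 was at 206 to 220 and 175 to 201 FPKM. Of 8 astrocyte markers 2 rose and 1 fell at 24 h, and Gfap rose by 3.01 (limma, adjusted p = 3.9e-05). None of the lymphocyte (0 of 2 tested), red blood cell (0 of 4) and choroid plexus (0 of 7) lists had a member that passed at 24 h. The part of these cells in the levels of the 10 genes was not tested. At 28 d against sham 0 members passed in any of these lists.

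Genes with the most similar profile over the 18 libraries were found among 14973 genes by Pearson's r of log2(FPKM + 1). These values are a description, since the libraries share their conditions. S100a8 was most like Flnc (0.976) and S100a9 most like Ucp2 (0.977). Cd14 and Msr1 were both most like the complement receptor C5ar1 (0.981 and 0.991). Lyz2 was most like Ly9 (0.972), followed by Irf8 (0.958) and B2m (0.958). Mrc1 was nearest to Alox5ap (0.978), Cd163 to Itga3 (0.968), Pf4 to Ptges (0.980), Ms4a7 to Cxcl5 (0.974) and F13a1 to Flnc (0.988). Among the 10 genes themselves r was 0.987 for S100a8 with S100a9, 0.962 for Cd14 with Msr1, 0.972 for Pf4 with F13a1 and 0.849 for Lyz2 with Ms4a7. Ms4a7 had its lowest value with Msr1 (0.094), so that these 2 markers of macrophages followed different time courses.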

How the data were processed

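Poly(A) RNA of ipsilateral cortex was sequenced as strand-marked paired-end libraries, per the labels' protocols. The authors deposited 1 table of FPKM for 37319 entries in 18 libraries, made with HISAT and StringTie on build mm9, per the submitters' processing notes, which also name edgeR and give no versions. Of several entries of a symbol (61 symbols) the one with the highest mean was kept.

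log2(FPKM + 1) was tested two-sided in R 4.3.3 with the trend and empirical Bayes options of limma 3.58.1, with only the libraries of the groups compared and the arm as a term where arms were pooled. A gene was tested if 3 or more of the libraries compared reached 1 FPKM, and Benjamini-Hochberg adjusted p under 0.05 over all tested genes was called. Depth in reads is unknown. The code was tested on simulated data. Tables and figures used Python 3.11.15, pandas 2.3.3 and matplotlib 3.10.9. Gene models of GENCODE M21 were used only to find overlaps: F13a1 and Mrc1 overlap models that carry no FPKM here.

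The members, lists and tests were chosen with earlier results of these data known. Named genes are the 10 members, Tiparp, up to 3 passing genes with the largest change of the neutrophil, monocyte and border macrophage lists, and the 3 genes most like each member. List genes under the filter, Ttr, Lyz1, Ly6c1, Fn1, Retnlg, Ngp, Csf3r, Fcrls, Gfap, Ednrb, Aqp4 and Slc1a2 were named after their values were seen. Each of these was tried in turn: all 18 libraries in 1 fit, weights per library (array weights), a block for the replicate number, no filter, a pseudocount of 0.1 FPKM, scaling by median ratios, libraries with Ttr above 100 FPKM left out, each arm alone and each library left out.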

Additional observations from a re-analysis of the deposited data

Results flagged for a closer look

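S100a8 differed between the arms in opposite directions at the 2 times. On the log2(FPKM + 1) scale its Tiparp-arm mean was lower at 24 h, with a difference of -1.85 and each of the 3 R24h_T libraries below the control mean, and higher at 28 d, with a difference of 1.09 and each of the 3 R28d_T libraries above the control mean, R28d_T3 barely so. The difference between the times was not tested. The 24 h value did not pass over all genes, and at 28 d S100a8 was under the filter and was not tested.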

How the results depend on the processing

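At 24 h against sham 9 markers passed in the control arm alone, with all 18 libraries in 1 fit, array weights, the replicate block, no filter, scaling by median ratios and a pseudocount of 0.1, 8 without the libraries rich in Ttr, 8 to 9 with 1 library left out and 0 in the Tiparp arm alone. Over all genes 3595 passed, 1434 without the libraries rich in Ttr, 3333 in the control arm alone, 27 in the Tiparp arm alone and 2032 to 5190 with 1 library left out. Median-ratio scaling moved the share of these calls that were higher from 78.2% to 58.1%, and the median difference of all genes from 0.10 to 0.01, with the 9 markers still higher.

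At 28 d against sham 0 markers passed, 2 (Lyz2 and Cd14) with array weights and 0 to 2 with 1 library left out. Over all genes the count of 1 became 800 with array weights, 0 with all 18 libraries in 1 fit, 0 without the libraries rich in Ttr, 7 in the control arm alone and 1 to 1150 with 1 library left out.

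At 28 d against 24 h the 2 markers became 0 with no filter, with the replicate block, without the libraries rich in Ttr and in the Tiparp arm alone, 6 with array weights, with all 18 libraries in 1 fit and in the control arm alone, and 0 to 6 with 1 library left out. Over all genes 439 passed, 20 with no filter, 117 with the replicate block, 2437 with array weights, 2540 with all 18 libraries, 0 without the libraries rich in Ttr, 839 in the control arm alone, 0 in the Tiparp arm alone and 2 to 2626 with 1 library left out. The counts with no filter rest on more genes tested. The cause of the other shifts was not tested.

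Between arms in sham the 1 marker, Lyz2, became 0 with no filter, with the replicate block, with all 18 libraries in 1 fit and without the libraries rich in Ttr, and 0 to 1 with 1 library left out. Over all genes 28 passed, 6 with no filter, 6 with the replicate block, 48 with array weights, 0 with all 18 libraries and 5 to 52 with 1 library left out. Cd14 turned from -0.04 to 0.21 without the libraries rich in Ttr and ranged from -0.0712 to 0.0375 with 1 library left out. At 24 h 0 genes passed, 9 with all 18 libraries in 1 fit and 0 to 2 with 1 library left out, and Lyz2 ranged from -1.36 to 0.26. For the difference of the 24 h responses 0 genes passed, 1 without the libraries rich in Ttr and 0 to 26 with 1 library left out, among them 0 to 1 of the markers. For the 28 d responses 1 gene passed, 5 with no filter, 21 with array weights, 0 without the libraries rich in Ttr and 1 to 3 with 1 library left out, and Lyz2 ranged from -0.64 to 2.14.

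The labels do not say that the replicate numbers pair libraries, and correlations cannot exclude it. Of 45 pairs with the same number 4 had a correlation of deviations above 0.1 (from -0.42 to 0.21). In 18 of the 45 the first library of the pair was closest to its own number. The replicate block changed no call of a marker beyond those given. Low values set the limit of what could be tested, since 7 of the 10 genes were under the filter at 28 d against sham.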
